A study of Argiope bruennichi with 12 samples.

Results

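The contrast of the cold with the moderate winter regime asks how gene expression differed with colder nights in overwintering spiderlings of the wasp spider Argiope bruennichi. The days were equally cold in both. Cold spiderlings spent 3 months at 5°C by day and -15°C by night, and moderate spiderlings at 5°C by day and -5°C by night. The colder nights also meant a lower mean temperature and a wider swing between day and night, which cannot be told apart. The third regime was a warm one (15°C by day and -5°C by night), which entered the statistical model and is described only where it places a gene. All spiderlings were untreated first instars, offspring of field-mated females from a northern population, and stayed inside their egg sacs in climate cabinets. RNA was taken from whole bodies, with 15 spiderlings in a pool and 4 pools per regime, and was sequenced after depletion of ribosomal RNA.

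Genes entered the contrast if they had at least 10 counts in 4 or more of the 8 cold and moderate pools. This left 13768 of the 37459 genes listed in the count table, and 20995 genes had at least 1 count in these pools. Each regime was kept in its own cabinet, and the paper's methods give another cabinet model for the cold regime than for the moderate regime, so night temperature and cabinet cannot be told apart. The egg sacs, mothers and sexes behind each pool are not given in the sources used here, so the p-values measure only the spread between these pools. In whole bodies, fewer cells of a type and less RNA per cell cannot be told apart. Gene names are those of the paper, and the genes it lists for any pair of regimes, 24 in all, are described below except 1.

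Night frost threatens a small ectotherm through ice, through membranes that stiffen and through proteins and microtubules that fall apart in the cold. Arthropods are known to answer with changed membrane lipids, with lipid carriers that move fat between tissues, with chaperones that hold unfolded proteins, and with adjustments of the cytoskeleton and of the enzymes that deal with oxidants. The DEGs and the listed genes of these functions whose regimes did not overlap are described first, then genes without a name, and then the chaperones and other listed genes.

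The 4 cold pools lay close together and the 4 moderate pools did not. Cold pools held 13407805 to 16081111 counts each, and moderate pools 10800714 to 14110124. Over all 13768 genes, on log2 CPM (counts scaled to the size of the library), the distance of a pool to the mean of its regime was 31.9 ± 3.14 (SD, n = 4) in the cold and 48.2 ± 13.4 (SD, n = 4) in the moderate regime (exact permutation test, two-sided, p = 0.0571, where the smallest p that 4 against 4 pools allow is 0.0286). Moderate replicates 2 and 4 were the farthest from their regime mean, at 60.5 and 58.6. Moderate replicates 1 and 3 had smaller mean distances to the cold pools (58.0 and 63.1) than to the other moderate pools (68.0 and 72.3). For moderate replicate 2 the mean distance was 90.3 to the cold pools and 89.5 to the other moderate pools. Moderate replicate 4 had a mean distance of 53.9 to the warm pools, 67.7 to the cold pools and 87.6 to the other moderate pools. It thus stood nearer to the warm pools than to the cold ones, and farther still from its own regime. The number of DEGs is given with and without it. This pool was chosen with these counts known. Calls and adjusted p-values without it are therefore given as a description and not as a test.

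**Figure D1:**
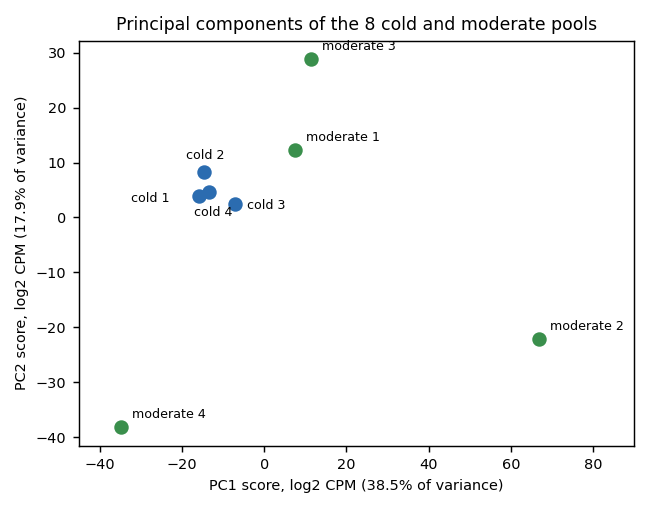
The first 2 principal components of log2 CPM over all 13768 genes in the 8 cold and moderate pools, 1 point per pool. The cold pools sit together between -15.7 and -7.19 on PC1, while moderate replicate 2 lies at 66.8 and moderate replicate 4 at -34.7.

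With all pools in the model, 2 genes were DEGs between cold and moderate, 1 upregulated and 1 downregulated in the cold (0.00726% of the genes tested in each direction and 0.0145% in both, by the quasi-likelihood test of edgeR at a Benjamini-Hochberg adjusted p under 0.05). At an unadjusted p under 0.05 there were 1672 genes, or 12.1%, of which 751 (5.45%) were higher in the cold. The Wald test of DESeq2, the tool of the study, called 187 genes on the same counts (1.36%), of which 86 (0.625%) were upregulated and 101 (0.734%) downregulated. The paper chose its listed genes from these counts with that tool. A DESeq2 call of a gene it lists for this contrast therefore repeats that choice. In 778 genes (5.65%) the 4 cold pools did not overlap the 4 moderate pools at all. Of these, 469 genes (3.41%) were higher in every cold pool and 309 genes (2.24%) were lower in every cold pool. The sizes were modest, with a median log2 fold-change of 0.46 among the 469 and of -0.48 among the 309, and 46 and 20 of them reached a 2-fold difference.

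The warm pools place these separations. Among the 469 genes higher in the cold, the cold pools also stood above all warm pools in 185 genes (39.4%), and in 85 genes (18.1%) the warm pools stood above all moderate pools as well. Among the 309 genes lower in the cold, the cold pools also stood below all warm pools in 131 genes (42.4%), and in 48 genes (15.5%) the warm pools too lay below all moderate pools. The warm mean was nearer to the cold than to the moderate mean in 42.9% of the 469 and 39.2% of the 309 genes, compared with 55.3% of all genes tested. All these genes were picked for cold pools apart from the moderate pools. Non-overlap with the warm pools was not counted over all genes tested. These counts share the cold and the moderate pools and are given as a description.

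The upregulated DEG encodes a putative ankyrin repeat protein (LOC129985250, bases 37374221 to 37387294 of chromosome 9 in assembly qqArgBrue1.1). Ankyrin repeats are protein-binding modules, and the best known ankyrins of vertebrates tie membrane proteins to the spectrin cytoskeleton. Its normalized counts, which are counts scaled to a common library size, were 485, 359, 378 and 478 in cold replicates 1 to 4 and 145, 196, 168 and 130 in moderate replicates 1 to 4. All cold pools were thus well above all moderate pools, and the warm pools, at 105 to 179, were at the moderate level. This gave a log2 fold-change of 1.42 (standard error 0.19, edgeR adjusted p = 0.0269), and it was 1.33 without moderate replicate 4 (adjusted p = 0.00762). The call was lost without any of the 4 cold pools, without moderate replicate 1 or 3 and without warm replicate 1 or 3, with an adjusted p of up to 0.212, while the log2 fold-change stayed between 1.33 and 1.53 with each cold or moderate pool left out.

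The downregulated DEG is listed as quinone oxidoreductases (LOC129981218, bases 22147538 to 22162307 of chromosome 8), enzymes that reduce quinones with NADPH. It was at 2135, 2498, 2579 and 2548 normalized counts in the cold pools and at 4051, 4678, 3954 and 4781 in the moderate pools. The highest cold pool was far below the lowest moderate pool, and the warm pools lay among the moderate ones at 3814 to 4541. Its log2 fold-change was -0.84 (standard error 0.11, edgeR adjusted p = 0.0231), with -0.79 and an adjusted p of 0.00544 without moderate replicate 4. Leaving out any cold pool, moderate replicate 1 or warm replicate 3 put the adjusted p above the threshold, at up to 0.148, with log2 fold-changes between -0.88 and -0.78 over the fits without a cold or moderate pool.

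Tubulin alpha chain (LOC129976437, chromosome 7), a subunit of microtubules, was the other cytoskeletal gene of the list. It was at 336, 189, 183 and 207 normalized counts in the cold pools and at 105, 139, 72 and 85 in the moderate pools. The regimes did not overlap, and cold replicate 1 stood apart above the other cold pools. The log2 fold-change was 1.20 (standard error 0.28), which did not pass the threshold with all pools (edgeR adjusted p = 0.181) or without moderate replicate 4 (0.0544), and which DESeq2 called (0.00716).

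Both genes of lipid transport that the paper lists for this contrast were higher in every cold pool than in any moderate pool. Apolipophorins-like (LOC129959427, chromosome X1) encodes the protein part of the particle that carries lipids through the haemolymph. Its normalized counts were 23812, 35309, 30012 and 27398 in the cold pools and 19110, 8947, 13888 and 15388 in the moderate pools. The lowest cold pool was above the highest moderate pool, while the warm pools, from 10526 to 24000, overlapped both regimes. Cold against moderate gave a log2 fold-change of 1.02 (standard error 0.25, edgeR adjusted p = 0.190, and 0.0519 without moderate replicate 4). DESeq2 called this gene with all pools (adjusted p = 0.0116).

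Nose resistant to fluoxetine (LOC129962681, chromosome 3) is named after a membrane protein of Caenorhabditis elegans that takes part in lipid transport. It was at 646, 668, 491 and 529 normalized counts in the cold pools and at 292, 286, 383 and 277 in the moderate pools. Here moderate replicate 3 was the pool nearest to the cold ones, and the warm pools, at 369 to 428, lay below all cold pools and overlapped the moderate ones. The log2 fold-change of 0.91 (standard error 0.14) had an edgeR adjusted p of 0.0576 and passed the threshold without moderate replicate 4 (0.86, adjusted p = 0.0114). With all pools, DESeq2 called this gene (adjusted p = 5.8e-06). The low-density lipoprotein receptor (LOC129957447, chromosome 2), which takes up lipoproteins, went the other way, at 135 to 193 in the cold pools and 215 to 287 in the moderate pools (log2 fold-change -0.48, standard error 0.21, edgeR adjusted p = 0.374).

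A pair of enzymes of fatty acid and phospholipid metabolism differed by small amounts, with little spread among pools. Lysophospholipid acyltransferase (LOC129987920, chromosome 10), which puts fatty acids back on lysophospholipids of the membrane, was at 1668, 1668, 1598 and 1563 normalized counts in the cold pools and at 1116, 1267, 1227 and 1351 in the moderate pools. Acyl-CoA dehydrogenase (LOC129963497, chromosome 3), which catalyses the first step of fatty acid oxidation, was at 632, 633, 535 and 607 in the cold and at 414, 430, 483 and 493 in the moderate pools. All cold pools exceeded all moderate pools in both genes, and moderate replicate 4 was the highest moderate pool in each. Their log2 fold-changes were 0.39 (standard error 0.11, edgeR adjusted p = 0.231) and 0.40 (standard error 0.11, adjusted p = 0.236). Without that pool, the moderate one nearest to the cold pools, the log2 fold-changes were 0.43 (edgeR adjusted p = 0.0382) and 0.44 (adjusted p = 0.0457). Both were called by DESeq2 with all pools (adjusted p = 0.0335 and 0.0427), the tool with which the paper chose them.

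Diacylglycerol kinase 1 (LOC129984733, chromosome 9), which turns diacylglycerol into phosphatidic acid, was at 505, 515, 561 and 545 normalized counts in the cold pools and at 758, 879, 562 and 1129 in the moderate pools. Moderate replicate 3 was all but level with the highest cold pool, and moderate replicate 4 was at the warm level of 1064 to 1256. For this kinase the log2 fold-change was -0.65 (standard error 0.17, edgeR adjusted p = 0.210), and DESeq2 called it (adjusted p = 0.0323). Phospholipase A2 (LOC129964053), which cuts fatty acids from phospholipids, overlapped between the regimes, at 1016 to 1581 in the cold and 569 to 1018 in the moderate pools (log2 fold-change 0.52, standard error 0.24, adjusted p = 0.412). Fatty acid amide hydrolase 2 (LOC129976441) overlapped as well, at 56 to 139 in the cold and 54 to 80 in the moderate pools.

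G-protein coupled receptor 52-like (LOC129963668, chromosome 3), which the paper lists for another pair of regimes, was at 2319, 2008, 2135 and 2253 normalized counts in the cold and at 1384, 1607, 1299 and 1174 in the moderate pools. Its levels were ordered from cold through moderate to warm (873 to 1069) with no overlap between neighbouring regimes. The log2 fold-change in cold against moderate was 0.67 (standard error 0.11, edgeR adjusted p = 0.0856, and 0.0114 without moderate replicate 4). DESeq2 called this receptor with all pools (adjusted p = 2.58e-05). The gene shares part of its span with another annotated gene that passed the filter, and whether counting used strand is not given in the sources used here.

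Adult-specific rigid cuticular protein (LOC129968137, chromosome 5), a structural protein of the exoskeleton, had the fewest counts of the listed genes. The cold pools held 9, 10, 7 and 5 normalized counts and the moderate pools 28, 43, 139 and 12. Moderate replicate 3 alone was far above the rest, and the warm pools, at 6 to 25, were near the cold level. The log2 fold-change was -2.81 (standard error 0.66, edgeR adjusted p = 0.182, DESeq2 adjusted p = 0.00618). It was -3.14 without moderate replicate 4 (adjusted p = 0.0128) and -1.79 without moderate replicate 3 (adjusted p = 0.251).

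**Figure D2:**
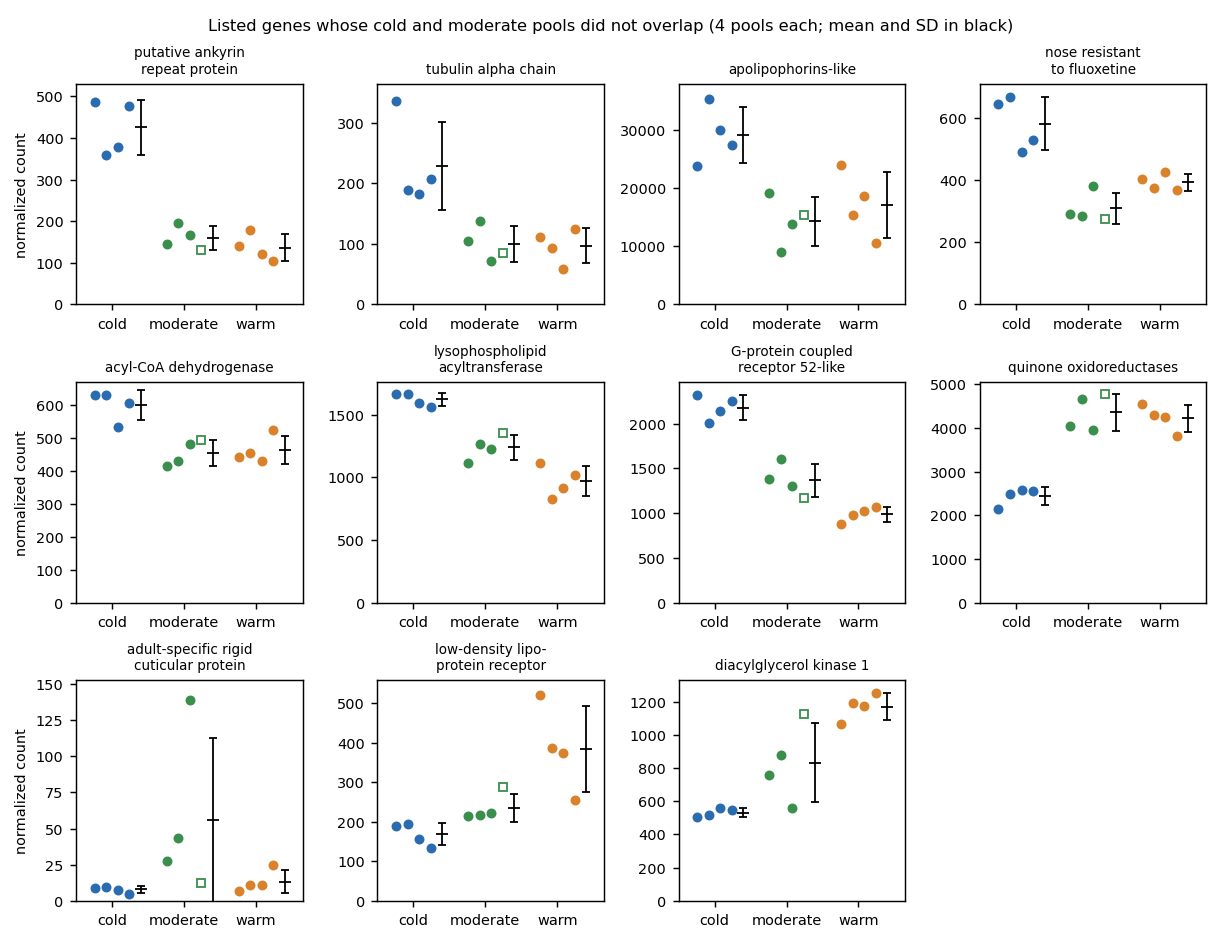
Normalized counts (linear axes from 0) of 11 of the 12 listed genes whose cold and moderate pools did not overlap, with 1 point per pool in replicate order, moderate replicate 4 as an open square and the mean ± SD of 4 pools in black. The putative ankyrin repeat protein stands at 359 to 485 in the cold pools and at 105 to 196 in all others, and quinone oxidoreductases at 2135 to 2579 in the cold pools and at 3814 to 4781 in all others.

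Of the 24 listed genes, 8 were higher in every cold pool than in any moderate pool and 4 were lower, beside 3.41% and 2.24% of all genes tested. The paper chose 9 of the 24 from these counts for this very contrast, so nothing is read from that count. The median log2 fold-change was 0.33 over the 24 genes and -0.0078 over all genes.

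Among the genes without a name, the ones with the smallest p whose regimes did not overlap were near those above in size. LOC129971397 (bases 112474682 to 112477743 of chromosome 6) was at 2641, 2397, 2349 and 2220 normalized counts in the cold pools and at 1186, 1449, 1582 and 1151 in the moderate pools. The warm pools (1002 to 1407) did not stand apart from the moderate ones. Its log2 fold-change of 0.84 (standard error 0.13) had an edgeR adjusted p of 0.0576 with all pools and of 0.0111 without moderate replicate 4. DESeq2 called this gene with all pools (adjusted p = 9.15e-06). LOC129975604 (bases 29749994 to 29806925 of chromosome 1) was at 5538, 5056, 3873 and 4035 in the cold and at 1920, 1304, 2323 and 2759 in the moderate pools. In this gene the warm pools sat with the cold ones, at 3762 to 4537, so that the moderate pools were the ones apart. The log2 fold-change was 1.15 (standard error 0.19, edgeR adjusted p = 0.0875, and 0.00613 without moderate replicate 4). DESeq2 called LOC129975604 too with all pools (adjusted p = 4.74e-05).

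More unnamed genes were picked by the same rule on the higher side. LOC129981860 (chromosome 8) was at 416 to 594 in the cold pools and at 274 to 342 in the moderate pools, with a log2 fold-change of 0.77. LOC129958941 (chromosome X1) was at 33 to 52 and at 12 to 18, with a log2 fold-change of 1.47. LOC129975732 (chromosome 7) was at 373 to 525 and at 181 to 308, with a log2 fold-change of 0.88. None of these passed in edgeR with all pools (adjusted p between 0.131 and 0.136), and all did without moderate replicate 4 (0.0164, 0.0197 and 0.0209). DESeq2 called all of them with all pools (adjusted p of 0.000378, 0.00406 and 0.000378).

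On the lower side, 7 unnamed genes came after quinone oxidoreductases, all with an edgeR adjusted p between 0.131 and 0.136. DESeq2 called all 7 with all pools (adjusted p from 0.000237 to 0.00167). LOC129980985 (chromosome 8) was at 113, 152, 157 and 137 normalized counts in the cold pools and at 319, 249, 197 and 338 in the moderate pools, with the warm pools at 250 to 260 (log2 fold-change -0.98, standard error 0.18). LOC129959420 (chromosome X1) was at 17, 31, 35 and 26 in the cold and at 74, 102, 95 and 41 in the moderate pools, with the warm pools at 33 to 41 (log2 fold-change -1.52, standard error 0.30). In the first of these genes the warm pools lay at the moderate level, and in the second moderate replicate 4 and the warm pools lay near the cold level. The remaining 5 were LOC129962303 on chromosome 2 (-0.95), the long non-coding RNA gene LOC129976743 on chromosome 7 (-0.79), LOC129971156 on chromosome 6 (-0.66), LOC129958912 on chromosome X1 (-0.64) and LOC129960084 on chromosome X2 (-0.61), the values being log2 fold-changes. LOC129976743 shares part of its span with another annotated gene that passed the filter.

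Leaving out moderate replicate 4 changed the number of DEGs from 2 to 653 (4.74% of the genes tested), of which 224 were upregulated in the cold (1.63%) and 429 downregulated (3.12%). Among them were both DEGs of the fit with all pools. The median log2 fold-change was 0.75 among the upregulated and -0.70 among the downregulated genes, and 71 and 76 of them reached a 2-fold change. Without a further cold pool the number was 237 (cold replicate 1), 252 (cold replicate 2), 379 (cold replicate 3) or 211 (cold replicate 4), and it was 142 in a fit of only the 7 remaining cold and moderate pools. Leaving out moderate replicate 1, 2 or 3 instead of replicate 4 gave 0, 21 and 4 DEGs.

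Moderate replicate 4 took no part in that fit, but it was left out because it stood apart from its regime, so its level in the 653 genes is given as a description. On a scale where 0 is the mean of moderate replicates 1 to 3 and 1 is the mean of the cold pools, each on log2 normalized counts, the left-out pool had a median position of 1.13 (quartiles 0.81 and 1.49) in the 653 genes. Over all genes tested the median was also 1.13, with wider quartiles of -0.073 and 2.31. In the called genes it was nearer to the cold mean than to the mean of the other moderate pools in 578 of the 653 genes (88.5%), compared with 66.2% of all genes tested. The share was 82.1% of the upregulated and 91.8% of the downregulated genes. The mean of the warm pools had a median position of 1.09 (1.1 over all genes tested) and was nearer to the cold mean in 576 genes (88.2%), compared with 66.4% of all genes tested. Among the 21 genes called without moderate replicate 2, that pool was nearer to the cold mean in 13 genes (61.9%, and 45.2% of all genes tested). The medians near 1 were thus shared by all genes, and the 653 genes had a higher share nearer to the cold mean, which was not tested. That share is not independent of the call, since the genes were called on the gap that sets the scale. With moderate replicate 1, 2 or 3 left out instead, the median position of that pool over all genes was 0.38, 0.11 or 0.57.

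**Figure D3:**
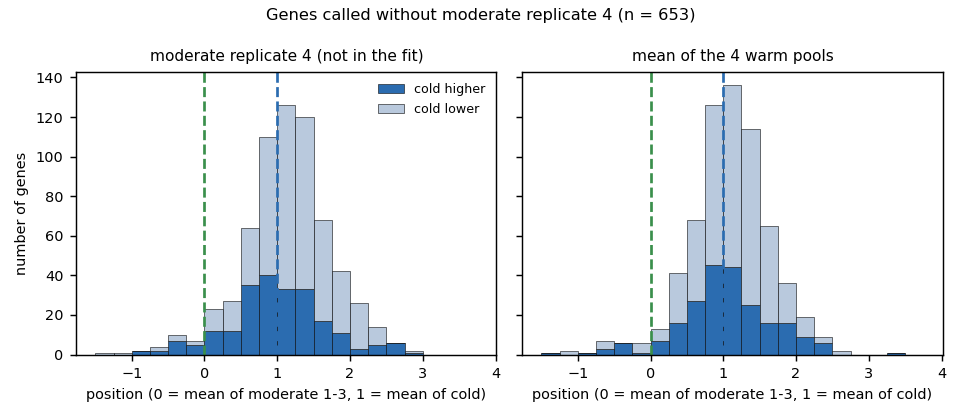
Histograms of the position of moderate replicate 4 (left) and of the mean of the warm pools (right) in the 653 genes called without that replicate, where 0 is the mean of moderate replicates 1 to 3 and 1 the mean of the cold pools on log2 normalized counts. Both histograms centre near 1, with medians of 1.13 and 1.09, and so do the positions over all genes tested (medians of 1.13 and 1.1).

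In 143 of the 653 genes (1.04% of the genes tested) all 8 pools kept the regimes apart, moderate replicate 4 included, and 71 of these were higher and 72 lower in the cold. Besides the putative ankyrin repeat protein, 3 genes had the largest positive log2 fold-changes among those with a mean of at least 50 normalized counts. LOC129964051 (bases 62872386 to 62898459 of chromosome 3) was at 599, 251, 241 and 176 normalized counts in the cold pools and at 43, 154, 45 and 174 in the moderate pools, with the warm pools at 308 to 489 (log2 fold-change 1.63 with all pools and 2.02 without moderate replicate 4, edgeR adjusted p = 0.237 and 0.0385). LOC129963181 (chromosome 3) was at 4795 to 6730 in the cold and 1448 to 3612 in the moderate pools, and LOC129975965 (chromosome 7) at 160 to 216 and 31 to 126. The warm pools lay within the cold range in LOC129964051 and spanned the gap between the regimes in LOC129963181 (3044 to 5827). They lay from about the lowest cold level upwards in LOC129975965 (156 to 271).

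On the lower side, with the same minimum mean of 50 normalized counts, 3 of the 4 genes with the largest negative log2 fold-changes had a single high pool, moderate replicate 2, the other being LOC129959420. LOC129962960 (chromosome 3) was at 72, 53, 73 and 66 normalized counts in the cold pools and at 111, 477, 92 and 75 in the moderate pools. The long non-coding RNA gene LOC129980049 (chromosome 1) was at 109 to 155 in the cold pools and at 588 in moderate replicate 2 against 191 to 229 in the other moderate pools. LOC129971506 (chromosome 6) was at 260 to 304 and at 1211 against 316 to 444. Their log2 fold-changes with all pools were -1.49, -1.18 and -1.11, and their edgeR adjusted p-values without moderate replicate 4 were 0.0485, 0.0269 and 0.0333. With moderate replicate 2 left out instead, the log2 fold-changes were -0.48, -0.67 and -0.51.

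The chaperone genes varied more among moderate pools than between the regimes. Heat shock protein 70 B2 (LOC129958558, chromosome 2), which refolds proteins at the cost of ATP, was at 2897, 896, 2683 and 938 normalized counts in the cold pools and at 4802, 7687, 3356 and 240 in the moderate pools. Moderate replicate 4 was the lowest of the 8 pools and the other moderate pools were the highest. The cold pools were split between replicates 1 and 3 and replicates 2 and 4, and the warm pools were at 305 to 762. The log2 fold-change was -1.12 (standard error 0.68, edgeR adjusted p = 0.533, and 0.0645 without moderate replicate 4). The gene overlaps another annotated gene that passed the filter, and counts of near-identical copies of such genes are uncertain.

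The small heat shock genes, whose proteins keep unfolded proteins from clumping, had moderate replicate 4 as their lowest pool too. Alpha-crystallin A chain-like (LOC129984551) was at 1624, 822, 994 and 1184 in the cold pools and at 1353, 3185, 3325 and 131 in the moderate pools. LOC129957165, listed as protein lethal(2)essential for life-like, was at 399 to 1055 in the cold pools and at 1321, 2653, 1480 and 332 in the moderate pools. Alpha-crystallin B chain-like (LOC129981871) was at 232 to 352 and at 325, 888, 456 and 169. Small heat shock protein (LOC129988413) was at 1792 to 4810 and at 2972, 5146, 5182 and 1077. In each of these small heat shock genes moderate replicate 4 lay within the range of the warm pools, which was 64 to 154 in alpha-crystallin A chain-like. None of the 5 chaperone genes was a DEG with all pools (edgeR adjusted p between 0.353 and 0.784), and 1 of the 5, protein lethal(2)essential for life-like, was called without moderate replicate 4 (log2 fold-change -1.55, adjusted p = 0.0382), where 3.12% of all genes tested were downregulated. The median log2 fold-change of the 5 genes was -0.79, and -1.18 without that pool, beside -0.0078 and 0.0097 over all genes.

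Acetoacetyl-CoA synthetase (LOC129964270, chromosome 3), which activates the ketone body acetoacetate for lipid synthesis, followed moderate replicate 4 in the other direction. It was at 531, 206, 440 and 184 normalized counts in the cold pools, at 79, 78 and 33 in moderate replicates 1 to 3 and at 536 in moderate replicate 4. For this enzyme the log2 fold-change was 0.91 (standard error 0.64, edgeR adjusted p = 0.592) with all pools and 2.44 (adjusted p = 0.0114) without that pool. Cytochrome P450 3A24-like (LOC129957012, chromosome 11), of a family of monooxygenases, was at 126 to 299 in the cold pools and at 845, 507, 455 and 207 in the moderate pools (log2 fold-change -1.14, adjusted p = 0.289, and -1.40, adjusted p = 0.0308, without moderate replicate 4). In cytochrome P450 3A24-like, moderate replicate 4 lay within both the cold range and the warm range (94 to 210). In acetoacetyl-CoA synthetase it was level with the highest cold pool and below the warm pools (951 to 1634).

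Cytochrome P450 (LOC129961890, chromosome 2) overlapped between the regimes, at 2003 to 3483 in the cold and 1993 to 2547 in the moderate pools. Sucrose-6-phosphate hydrolase-like (LOC129956957), a sugar-cleaving enzyme, was at 36 to 256 in the cold and 20 to 78 in the moderate pools. Cold replicates 3 and 4 (36 and 76) lay among the moderate pools. Adenylosuccinate synthetase (LOC129983880), an enzyme of AMP synthesis, was at 3539 to 4503 in the cold pools, at 3549, 4259 and 3594 in moderate replicates 1 to 3 and at 7252 in moderate replicate 4, where the warm pools stood at 6257 to 7375. The edgeR adjusted p-values of these 3 genes were 0.570, 0.348 and 0.612.

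**Figure D4:**
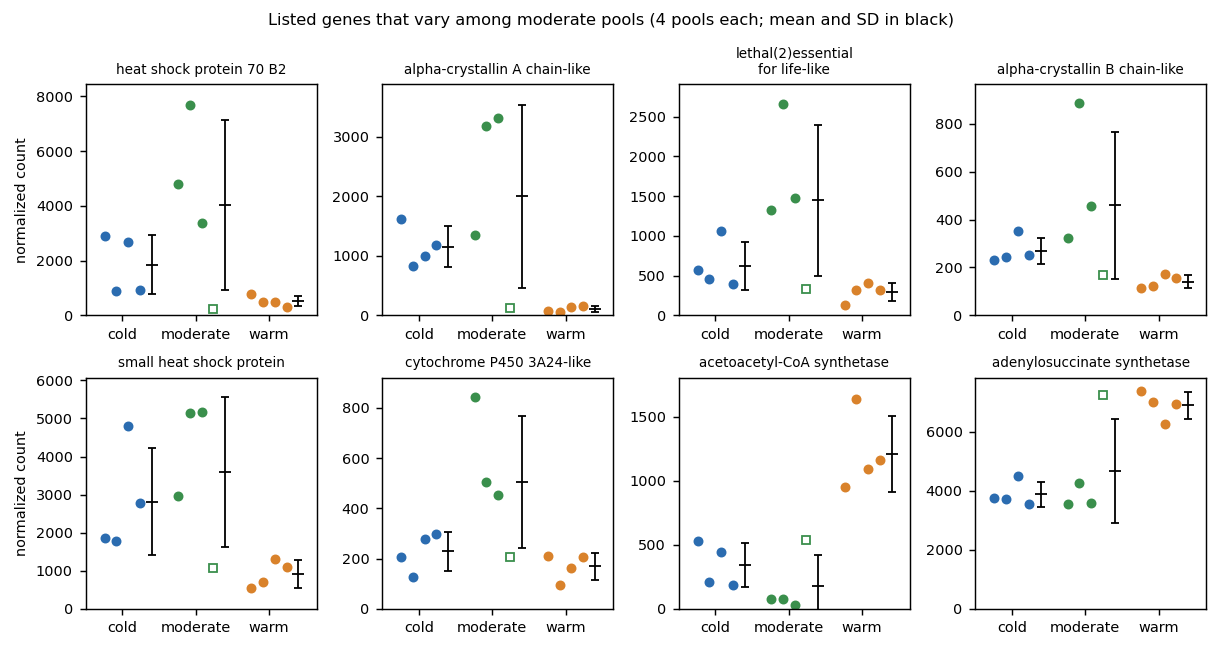
Normalized counts (linear axes from 0) of 8 listed genes in each pool, in replicate order within a regime, with moderate replicate 4 as an open square and the mean ± SD of 4 pools in black. In heat shock protein 70 B2 and alpha-crystallin A chain-like that pool (240 and 131) lies below all cold pools, and in acetoacetyl-CoA synthetase it lies at 536 while the other moderate pools lie between 33 and 79.

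Genes on the sex chromosomes leaned lower in the cold. The annotation names an X1 and an X2, of which male spiders of most orb-weaver species carry a single copy each and females a pair. Of the 1880 genes on X1 or X2, 95 (5.05%) were lower in every cold pool than in any moderate pool and 44 (2.34%) higher, while of the 11869 autosomal genes 214 (1.80%) were lower and 425 (3.58%) higher. The median log2 fold-change was -0.095 on X1 and -0.10 on X2, and it lay between -0.011 and 0.020 on each of the 11 autosomes. Without moderate replicate 4 the medians were smaller, at -0.051 on both X1 and X2, and lay between -0.0054 and 0.056 on the autosomes. In that fit, 84 genes of X1 and X2 (4.47%) were downregulated and 20 (1.06%) upregulated, beside 345 (2.91%) and 204 (1.72%) of the autosomal genes.

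The shift was small and was not shared evenly by the pools. The median of X1 and X2 genes relative to that of autosomal genes, as a deviation in log2 CPM from the mean of the 8 pools, was -0.081, 0.0035, -0.038 and -0.10 in the cold pools and 0.018, 0.11, -0.060 and 0.097 in the moderate pools. Cold and moderate pools overlapped, since moderate replicate 3 lay below cold replicates 2 and 3 (difference of the means -0.094, exact permutation test, two-sided, p = 0.114). The warm pools were at 0.095 to 0.16. This measure was chosen after the chromosomes of the genes had been seen, and the part of the sex makeup of the pools in it was not tested.

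**Figure D5:**
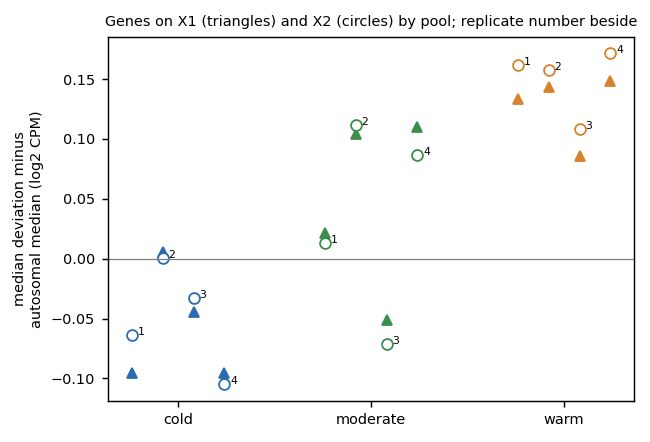
Median deviation of X1 genes (triangles) and X2 genes (open circles) from the mean of the 8 cold and moderate pools, minus the autosomal median, in log2 CPM, for each of the 12 pools. X1 and X2 moved together in each pool, and the cold pools lie between -0.10 and 0.0060.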

How the data were processed

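Ribosomal RNA was depleted with probes designed for the species, directional libraries were sequenced as paired ends, and the authors aligned the reads to the species' own genome (STAR 2.7.11a, run in 2 passes) and obtained counts per gene from featureCounts (Subread 2.0.6). The deposited values are these raw counts, which the authors neither normalized nor filtered, and the settings for strand and for multiply mapped reads are not given in the sources used here. All 12 columns were mapped to samples by their labels, 0 columns were left out, and 2 genes without values were dropped. Genes with at least 10 counts in 4 or more of the 8 cold and moderate pools were tested with edgeR 4.0.16 under R 4.3.3 (TMM normalization, quasi-likelihood F test, regime as the only factor, 12 pools in 1 model, contrast of cold minus moderate), with Benjamini-Hochberg adjustment over all 13768 genes and a threshold of 0.05. The same fit was run without moderate replicate 4. Standard errors were approximated as the log2 fold-change over the root of F. Normalized counts were scaled to a mean library of 13694921 counts, and log2 values for distances used a prior count of 2. DESeq2 1.42.0, limma 3.58.1 with voom and sample weights, other scalings and filters, the replicate number as a block and fits without each pool were alternatives. Test functions were checked on simulated data.

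Named genes were those that the paper lists for this contrast, all DEGs with all pools, the 8 with the smallest p per direction among genes with no overlap and a mean of at least 10 normalized counts, up to 3 of each functional group of listed genes (mean of at least 50), and the 4 largest changes per direction among genes called without moderate replicate 4 (mean of at least 50, no overlap). The members, lists and rules were chosen with earlier results of these data known. The lists had been planned by product name, which the annotation used here does not give, so only genes the paper names were grouped and tissue markers were not checked. Of the genes tested, 13749 were found in the annotation of assembly qqArgBrue1.1 and 19 are transfer RNA genes outside it. Sequences of the genes were not used here. Of the genes chosen by these rules, 1 is not reported here, and it stays in the counts.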

Additional observations from a re-analysis of the deposited data

Results flagged for a closer look

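In 10 of 94 groups of 4 pools examined, among named and listed genes and measures of the pools, 1 pool was far from the other 3 by Dixon's criterion at the 95% level. Chance alone passes it in about 1 group in 20 where groups are not picked from the data. Many of these genes were picked from these counts, so the number is not compared with that rate. The moderate regime held 6 of them. Moderate replicate 4 stood apart in acetoacetyl-CoA synthetase (LOC129964270), at 536 normalized counts against 32.9 to 78.6, and in the low-density lipoprotein receptor (LOC129957447), at 287 against 215 to 222. Moderate replicate 2 stood apart in LOC129962960 (477 against 74.7 to 111), LOC129971506 (1211 against 316 to 444) and LOC129980049 (588 against 191 to 229). Moderate replicate 3 did so in nose resistant to fluoxetine (LOC129962681), at 383 against 277 to 292.

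In the cold regime, replicate 1 stood apart in tubulin alpha chain (LOC129976437), at 336 normalized counts against 183 to 207, and in its total of 16081111 counts against 13407805 to 13615959. Cold replicate 2 was at 135 against 173 to 180 in LOC129976743, and cold replicate 3 at 352 against 231 to 251 in alpha-crystallin B chain-like (LOC129981871).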

How the results depend on the processing

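With all pools, the 2 DEGs became 5 under upper-quartile scaling (4 upregulated and 1 downregulated) and 5 with no filter beyond 1 count, 187 with DESeq2's Wald test and 843 with limma's voom method and sample weights. A fit of only the 8 cold and moderate pools gave 0 DEGs in edgeR (1231 genes at an unadjusted p under 0.05) and 109 in DESeq2. With each pool left out in turn the number ran from 0 to 653. Without moderate replicate 4, the 653 DEGs became 1372 with DESeq2, 1038 with limma's voom method and sample weights and 142 in a fit of only the 7 remaining pools, and ran from 211 to 636 with a further pool left out. Fits that leave 2 moderate pools assume that these vary like the other groups. The 778 genes without overlap became 1051 to 2807 with a pool left out, 2807 being the number without moderate replicate 4. Autosomal genes alone, an alternative chosen after seeing the data, gave 2 and 542 DEGs.

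Replicate numbers are shared between regimes with no stated pairing, and deviations of same-numbered pools correlated at -0.079 to 0.11. With the replicate number as a block, edgeR called 0 genes with all pools (1606 at an unadjusted p under 0.05) and 214 without moderate replicate 4. Of 4 cold pools, 1 correlated best with the moderate pool of its own number.

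Of 40 named genes, 39 kept their direction in every alternative fit. Many of these genes were picked from these counts for a difference between the regimes, and the alternatives refit the same pools. Nothing is therefore read from that count. Adenylosuccinate synthetase (LOC129983880) turned from -0.26 to 0.032 under limma's voom method and to 0.031 without moderate replicate 4, and ran from -0.38 to 0.031 with each pool left out. At 10800714 to 16081111 counts a pool, replicate pools differed by more than counting error (chi-square per degree of freedom from 13.1 to 78.8), so the number and spread of pools limited these comparisons.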

Other observations

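Non-coding RNA genes were a small part of the genes tested. Of 560 long non-coding RNA genes, 7 (1.25%) were higher in every cold pool and 19 (3.39%) lower, beside 3.51% and 2.21% of the 13145 protein-coding genes. Of 24 small nucleolar RNA, 20 small nuclear RNA and 19 transfer RNA genes, none had pools without overlap (0 genes in each class), 1 small nuclear RNA gene was called without moderate replicate 4, and the log2 fold-changes of these classes lay between -1.05 and 1.56.

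Long genes had slightly negative median log2 fold-changes in cold against moderate, but the pools of the 2 regimes overlapped. With the genes in 10 classes of equal size by annotated span, the longest (median span of 216573 bases) had a median log2 fold-change of -0.12 and the next -0.095, while the other classes lay between -0.033 and 0.046. The longest genes were highest in moderate replicate 2, at a median deviation of 0.24 from the mean of the 8 pools on log2 normalized counts. They were between -0.11 and 0.039 in the other pools of the regimes compared. Cold replicate 2 (0.028) lay above moderate replicates 3 and 4 (-0.038 and -0.036).

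In 3 places, neighbouring genes tested were both among the 143 with no overlap that were called without moderate replicate 4, each pair in the same direction. The number of such pairs that random placement would give was not worked out, so nothing is read from the count. LOC129988981 and LOC129988387 on chromosome 10 had log2 fold-changes of 0.62 and 1.22, LOC129963381 and LOC129962829 on chromosome 3 of 0.38 and 1.48, and LOC129983632 and LOC129984932 on chromosome 9 of -0.73 and -0.78.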
